A study of Mus musculus with 8 samples.

Results

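Mitochondrial chaperones and proteases were examined as 9 genes, taken by name from the 20170 genes of the counts matrix: the chaperonin genes Hspd1 and Hspe1, the Hsp70 and cochaperone genes Hspa9 and Dnaja3, the Hsp90 gene Trap1, the protease genes Lonp1 and Clpp, and the prohibitin genes Phb and Phb2. All 9 passed the filter on low counts in every comparison, so none is missing below. The cells were T cells from mouse spleen, purified by magnetic separation. SDHA-KO mice carried Sdha fl/fl with CD4-Cre, in which the Cd4 promoter drives Cre recombinase, so that cells which never switch on Cd4 in the thymus, such as γδ T cells, may keep the gene. WT mice kept Sdha. All mice were adults, the study names C57BL/6 (B6) as the strain of the WT mice, and whether the sequenced WT mice carried a floxed Sdha allele was not given in the sources used here. Cells of both genotypes were cultured alone (unstimulated) or with soluble antibodies against CD3 at 5 μg/mL and against CD28 at 2.5 μg/mL over 48 hours (stimulated), which gave 4 groups of 2 libraries. Dead cells were then removed from all groups, and 3′ single-cell libraries were made, in which molecules are counted by unique molecular identifiers (UMIs). The labels do not say whether the 2 libraries of a group came from different mice, so the p-values measure the spread between libraries, which may be technical.

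Most mitochondrial proteins are made in the cytosol and cross the mitochondrial membranes unfolded. In the matrix, mtHsp70 (Hspa9) pulls them in, and Dnaja3 is a J-domain cochaperone of mtHsp70. The barrel-shaped Hsp60 chaperonin (Hspd1) with its lid Hsp10 (Hspe1) folds many of the imported proteins. Lonp1 and ClpXP, whose proteolytic core is Clpp, degrade misfolded or surplus matrix proteins, and the prohibitins Phb and Phb2 form ring-shaped scaffolds in the inner membrane that hold membrane-bound proteases. SDHA, the catalytic subunit of respiratory complex II, is itself imported from the cytosol, and T cells are known to expand their mitochondria after activation.

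The promoters of 2 loci are shown, picked by the expression of their genes. One is shared by Hspd1 and Hspe1, the genes with the highest UMI counts of the 9 in stimulated CD4 and CD8 cells. The other is that of Lonp1, the gene with the lowest SDHA-KO to WT ratio in those cells. Whether either promoter has a part in the results was not tested. Hspd1 (chr1:55077835-55088243, minus strand, mm10) and Hspe1 (chr1:55088132-55091307, plus strand) stand head to head on mouse chromosome 1, and their annotated spans overlap by 112 bases. RefSeq windows of 300 bases, 250 before and 50 after a start site, were found for 8 of the 9 genes (GRCm38.p6). The heat shock element searched, the sequence type bound by heat shock factors, reads GAA, TTC and GAA with 2 free bases between neighbours, on either strand, and was found in 0.6% of 32851 such windows. In the shared promoter it matched at 2 overlapping places, given here in capitals as a stretch of 30 bases on the plus strand, chr1:55088053-55088082. The 18 capital bases end 72 bases before the Hspe1 start and lie 127 bases before the nearer Hspd1 start. They are inside the annotated Hspd1 span, downstream of the other Hspd1 start.
Hspe1 and Hspd1: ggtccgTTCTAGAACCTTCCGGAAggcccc
The Lonp1 stretch (chr17:56626904-56627153, minus strand) holds the 250 bases before the start, with the E-box CACGTG, the palindrome bound by MYC and related factors, in capitals 31 bases upstream.
Lonp1: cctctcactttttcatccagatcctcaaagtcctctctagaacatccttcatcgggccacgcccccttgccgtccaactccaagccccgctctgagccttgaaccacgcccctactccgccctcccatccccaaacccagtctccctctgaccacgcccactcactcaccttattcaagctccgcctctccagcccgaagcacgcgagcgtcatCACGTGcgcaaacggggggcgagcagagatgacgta
CACGTG was present in 7.15% of all windows and, besides Lonp1, in the windows of Phb and of the upstream Hspd1 start. The composite C/EBP-ATF element (TGATGNAA on either strand), the type bound by CHOP and ATF4 dimers, occurred in 3.97% of windows and in none of those of the 8 genes. These matches describe letters in the windows only, and no binding was measured.

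The libraries held 1395 to 1801 cells and 10947009 to 51398728 UMIs. In sums over all CD4 or all CD8 cells, the scarcest values were of Lonp1 and Dnaja3 in unstimulated SDHA-KO CD8 cells. They rested on as few as 25 and 44 UMIs. Sums over smaller sets of cells, given further below, held as few as 6 UMIs of a gene. T cell markers (Cd3d, Cd3e, Cd3g, Trac and Trbc2) summed to 1831 to 4333 CPM (UMI counts scaled to an equal library size) in every sum of CD4 or CD8 cells, and Cd4 was at 98.2 to 631 CPM in CD4 and 1.199 to 13.7 CPM in CD8 sums, whereas NK and erythroid markers stayed at or below 7.14 CPM. The coreceptor markers also differed between genotypes: Cd4 was 155 and 155 CPM in unstimulated WT and 550 and 631 CPM in unstimulated SDHA-KO CD4 sums, and the pair Cd8a and Cd8b1 summed to 464 and 499 CPM in stimulated WT and 211 and 273 CPM in stimulated SDHA-KO CD8 sums. Sdha was lower in SDHA-KO libraries throughout: it fell from 74.0 and 73.1 to 26.5 and 26.4 CPM in stimulated CD4 cells (log2 fold change −1.47) and from 76.2 and 74.9 to 53.3 and 50.4 CPM in stimulated CD8 cells (−0.54). In the authors' CD8 class, 59.1% and 56.1% of stimulated SDHA-KO cells carried a UMI of Trdc, the constant gene of the γδ receptor, against 3.67% and 4.92% of stimulated WT cells, and the 4 γδ markers summed to 174 and 177 CPM against 13.4 and 17.7. Unstimulated SDHA-KO CD8 cells also stood apart from WT in these markers, at 205 and 153 CPM against 24.0 and 25.6. SDHA-KO was therefore also compared with WT, for the 9 genes over all CD8 cells, in strict cells, which had a UMI of the right coreceptor and none of the other coreceptor or of Trdc. The Tcm and Tem fits, the numbered subsets, the other gene lists and the values per cell were not repeated in strict cells. In strict CD8 cells Sdha fell by 1.42 on the log2 scale. B cell markers reached 345 CPM in stimulated SDHA-KO CD8 replicate 1 and 64.1 CPM in replicate 2, and myeloid markers summed to 140.1 to 163 CPM in the stimulated SDHA-KO sums against 80.5 to 89.4 CPM in WT. Their part in the results was not tested. A further split ran through the stimulated cells. The share of cells with percent.mt under 10, where percent.mt is the percentage of a cell's UMIs on the 13 mitochondrially encoded genes, was 24.3% to 41.0% in WT and 64.1% to 90.0% in SDHA-KO, so the 9 genes are also compared between genotypes within stimulated cells under 10. The comparisons between states were not repeated in those cells.

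**Figure D1:**
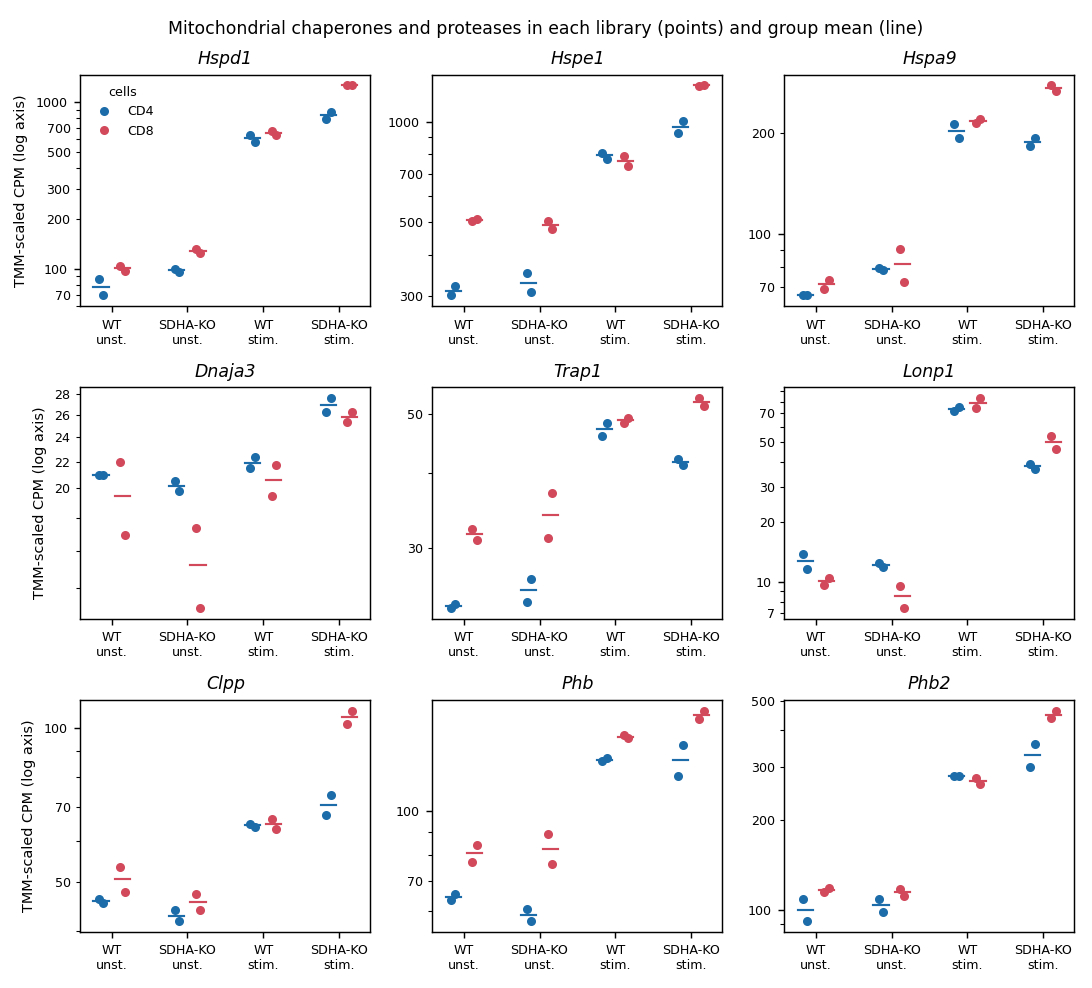
CPM on TMM-scaled library sizes (log axes) of the 9 genes in each library, for CD4 (blue) and CD8 (red) cells of the 4 groups on the horizontal axis; points are libraries and lines are means of 2. Hspd1 rises from 104 CPM or less in unstimulated WT to between 579 and 668 CPM in stimulated WT and to 1267 CPM in stimulated SDHA-KO CD8 cells, while Lonp1 is lower in stimulated SDHA-KO than in stimulated WT in both classes.

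Stimulation of WT cells raised 8 of the 9 genes in CD4 and 8 of 9 in CD8 cells, at an adjusted p under 0.05. Of all genes tested, 5160 of 14264 were higher in CD4 and 4644 of 13095 in CD8 cells at that threshold. In either direction 66.3% and 65.7% were called. Levels are CPM of the UMIs summed over a library's CD4 or CD8 cells. Hspd1 went from 86.4 and 69.2 CPM to 638 and 579 CPM in WT CD4 cells, a 7.83-fold rise (log2 fold change 2.97 ± 0.11 SE, n = 2 and 2 libraries, edgeR adjusted p = 1.46e-09). Its partner Hspe1, which was already abundant before stimulation, went from 302 and 322 to 810.1 and 777 CPM, a 2.55-fold rise. The pair therefore moved by unequal amounts in the same cells. In WT CD8 cells Hspd1 rose 6.48-fold and Hspe1 1.504-fold.

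Lonp1, a matrix protease that also binds mitochondrial DNA, was scarce before stimulation at 13.8 and 11.7 CPM in WT CD4 and 9.71 and 10.5 CPM in WT CD8 cells. It rose 5.79-fold to 71.7 and 75.6 CPM in CD4 and 7.76-fold to 73.9 and 83.5 CPM in CD8 cells, the groups lying far apart. Hspa9, the import motor, rose 3.06-fold in CD4 and 3.03-fold in CD8 cells. The prohibitin Phb2 rose 2.79-fold and 2.32-fold, and its partner Phb 2.02-fold and 1.82-fold. Trap1, the mitochondrial Hsp90, rose 1.96-fold and 1.54-fold, and Clpp 1.40-fold and 1.29-fold, the CD8 call of Clpp needing unstimulated WT replicate 2 (0.30 on the log2 scale when it was left out). Dnaja3 did not pass the test in either class (log2 fold change 0.06 ± 0.10 in CD4 and 0.10 ± 0.15 in CD8), and its WT CD4 values were 21.01 and 20.98 CPM before and 21.5 and 22.4 CPM after stimulation. With library totals in place of TMM, which moved the median of all genes from 0.08 to 0.30 in CD4 and from 0.09 to 0.57 in CD8 cells, Dnaja3 was called at 0.28 and 0.58. A stimulated cell also held more RNA than an unstimulated cell. Counted per cell, the 9 genes together went from a mean of 4.96 to 70.8 UMIs in WT CD4 and from 7.73 to 67.9 UMIs in WT CD8 cells. In the sums, a change in RNA per cell and a change in the mix of cells cannot be told apart.

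Before stimulation, none of the 9 genes was called between SDHA-KO and WT in CD4 or in CD8 cells with edgeR, where 1.1% and 0.947% of all genes were called. At an unadjusted p under 0.05 there were 2 genes in CD4 cells, Hspd1 and Hspa9, and 1 in CD8 cells, Hspd1, against 2282 of 14264 and 1852 of 13095 genes tested. The gene closest to the adjusted threshold in CD8 cells was Hspd1, which had 104 and 97.3 CPM in WT and 132 and 124 CPM in SDHA-KO (log2 fold change 0.35 ± 0.08, adjusted p = 0.0865). The genotypes did not overlap there, nor in CD4 cells, with 86.4 and 69.2 against 99.9 and 95.9 CPM (0.33 ± 0.11, adjusted p = 0.185). In CD4 cells Hspa9 was the closest, at 66.1 and 66.4 against 79.6 and 78.3 CPM, also without overlap (0.25 ± 0.08, adjusted p = 0.178). Hspd1 in unstimulated CD8 cells was called with DESeq2 (log2 fold change 0.36), with library totals in place of TMM (0.49) and in strict cells (0.45), while DESeq2 called 0 of the 9 genes in CD4 cells. Lonp1 was at 13.8 and 11.7 CPM in WT and 12.5 and 11.9 CPM in SDHA-KO CD4 cells, with overlapping genotypes.

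In stimulated CD4 cells, SDHA-KO libraries had more Hspd1, Hspe1 and Dnaja3 and less Lonp1 than WT libraries. Of the 9 genes 3 were higher and 1 was lower, whereas 22.7% of all 14264 genes tested were higher, 20.5% were lower and 43.2% were called in all. Lonp1 read 71.7 and 75.6 CPM in WT and 39.2 and 37.0 CPM in SDHA-KO cells, so that both SDHA-KO values were well below the WT pair (log2 fold change −0.95 ± 0.08, 0.517-fold, edgeR adjusted p = 8.12e-06). Hspd1 was 638 and 579 CPM in WT and 794 and 878 CPM in SDHA-KO cells (0.46 ± 0.10, 1.37-fold, adjusted p = 0.00279). Hspe1 followed with 810.1 and 777 CPM against 924 and 1005 CPM (0.28 ± 0.08, adjusted p = 0.0167), again without overlap. Dnaja3, the J-domain partner of mtHsp70 also known as Tid1, had 21.5 and 22.4 CPM in WT and 26.3 and 27.6 CPM in SDHA-KO cells (0.30 ± 0.09, adjusted p = 0.0152). Hspa9 itself was 212 and 193 CPM in WT and 183 and 193 CPM in SDHA-KO cells and was not called (−0.11 ± 0.07). Trap1 (−0.18 ± 0.08), Clpp (0.14 ± 0.07), Phb (−0.00 ± 0.08) and Phb2 (0.24 ± 0.10) were not called either. Both WT Phb2 libraries had 279 CPM, and the SDHA-KO libraries differed between themselves at 299 and 359 CPM. Phb2 was called with library totals in place of TMM (0.26), with no filter (0.28) and without SDHA-KO replicate 1 (0.38). Lonp1 and Hspd1 were called in all 15 alternatives tried. The Hspe1 call was lost without WT replicate 2 (0.27) or SDHA-KO replicate 2 (0.23), and the Dnaja3 call without WT replicate 1 (0.28) or 2 (0.34) and with DESeq2 (0.31).

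In stimulated CD8 cells the SDHA-KO libraries were higher than WT for 6 of the 9 genes and lower for Lonp1, against 26.8% of all 13095 genes higher, 23.5% lower and 50.4% called in all. Hspd1 read 668 and 635 CPM in WT and 1267 and 1259.9 CPM in SDHA-KO cells, a 1.94-fold difference (log2 fold change 0.96 ± 0.07, edgeR adjusted p = 1.81e-06). Hspe1 read 792 and 737 CPM against 1284 and 1292 CPM (0.75 ± 0.07, 1.68-fold, adjusted p = 6.8e-06). For both chaperonin genes the gap between genotypes was many times the gap between replicates. Phb2 went from 277 and 264 to 436 and 463 CPM (0.73 ± 0.07, adjusted p = 8.41e-06), while its partner Phb had 148 and 146 against 161 and 168 CPM and was not called (0.16 ± 0.08, adjusted p = 0.0992). Clpp, the proteolytic core of ClpXP, had 66.4 and 63.3 CPM in WT and 102 and 108 CPM in SDHA-KO cells (0.69 ± 0.07, adjusted p = 2.45e-05). Lonp1, the other matrix protease of the 9, lay on the opposite side, with 73.9 and 83.5 CPM in WT and 54.0 and 46.6 CPM in SDHA-KO cells (−0.64 ± 0.10, adjusted p = 0.00025). Hspa9 (0.32 ± 0.08, adjusted p = 0.00763) and Dnaja3 (0.32 ± 0.12, adjusted p = 0.0366) were higher by smaller amounts, and Trap1 was not called (0.10 ± 0.08).

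In strict CD8 cells the same direction was seen with smaller values for most of these genes: 0.75 for Hspd1, 0.61 for Hspe1, 0.55 for Phb2, 0.55 for Clpp and −0.68 for Lonp1, each still called. Dnaja3 was 0.60 there, with 19.3 and 21.7 CPM in WT and 29.1 and 33.3 CPM in SDHA-KO strict cells. Hspa9 was no longer called in strict cells (0.21, adjusted p = 0.0617), nor without WT replicate 1 (0.29). The Dnaja3 call in all CD8 cells was lost without WT replicate 1 (0.23) or 2 (0.39), without SDHA-KO replicate 1 (0.34) or 2 (0.28), with DESeq2 (0.33) and with library totals (0.26).

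**Figure D2:**
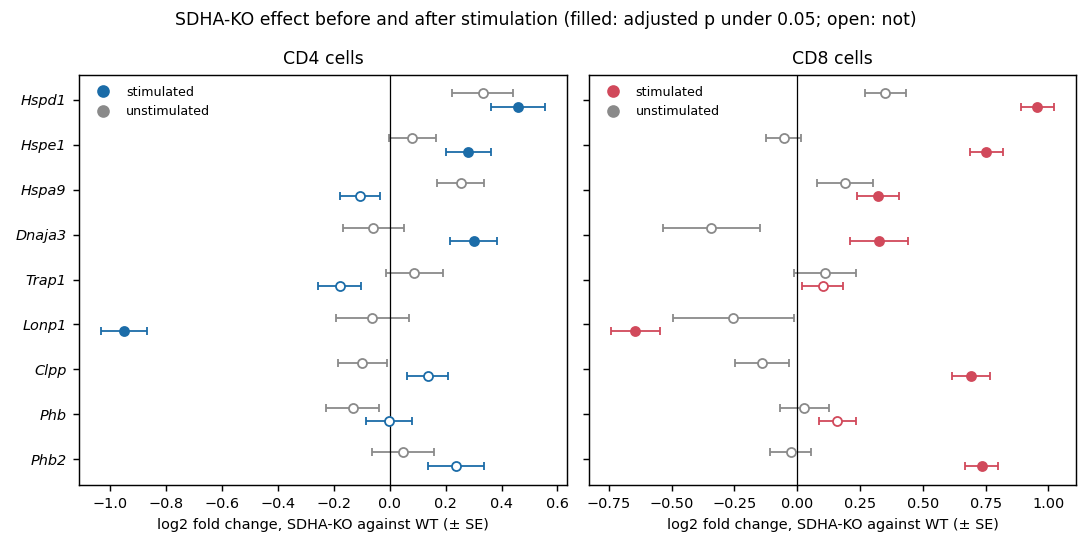
Log2 fold change of SDHA-KO against WT (horizontal axis, bars are SE) for the 9 genes in CD4 (left) and CD8 (right) cells, unstimulated (grey) and stimulated (colored); filled points had an adjusted p under 0.05. No unstimulated point is filled, Lonp1 is the only filled point left of 0 in either class, and Hspe1, Clpp and Phb2 sit near 0 before stimulation and at 0.75, 0.69 and 0.73 after it in CD8 cells.

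Whether the SDHA-KO effect differed between states was tested as an interaction, in which 21.4% of all genes in CD4 and 23.8% in CD8 cells were called. In CD4 cells the change was called for Lonp1, from −0.06 before to −0.95 after stimulation (difference −0.89 ± 0.15, edgeR adjusted p = 0.00237), and for Hspa9, from 0.25 to −0.11 (difference −0.36 ± 0.11, adjusted p = 0.037). The Hspa9 call was lost in 12 alternatives, among them each of the 8 fits with a library left out (−0.25 to −0.39). In CD8 cells it was called for Clpp (difference 0.83 ± 0.13), Hspe1 (0.81 ± 0.10), Phb2 (0.76 ± 0.11) and Hspd1 (0.61 ± 0.11), with adjusted p between 0.000383 and 0.00252. The Lonp1 difference in CD8 cells was −0.39 ± 0.26 and was not called. In strict cells the CD8 difference of Hspd1 was 0.31 and not called. Dnaja3 was called in CD4 cells without stimulated SDHA-KO replicate 1 (0.44), and in CD8 cells without unstimulated SDHA-KO replicate 1 (0.88) or with no filter (0.68).

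The SDHA-KO effect was then compared between the classes in the stimulated libraries, each library serving as its own block, where 22.4% of all genes were called. It was higher in CD8 than in CD4 cells for Clpp (difference of log2 fold changes 0.55 ± 0.07), Phb2 (0.49 ± 0.07), Hspd1 (0.48 ± 0.07), Hspe1 (0.46 ± 0.06) and Hspa9 (0.41 ± 0.08), with edgeR adjusted p between 0.00174 and 0.00949. Lonp1 (0.29 ± 0.08, adjusted p = 0.0385) and Trap1 (0.26 ± 0.08, adjusted p = 0.0405) were also called, but Lonp1 kept its call in 3 and Trap1 in 2 of 11 alternatives. Dnaja3 (0.01 ± 0.09) and Phb (0.15 ± 0.07) were not called, and the Hspa9 call was lost without WT replicate 1 (0.32). The γδ markers and Sdha differed between the classes as given above. In strict cells the difference was 0.44 for Clpp, 0.33 for Hspd1, 0.33 for Hspe1, 0.32 for Phb2 and 0.37 for Hspa9, all called. In strict cells with percent.mt under 10, a setting added once the data were known, Hspd1 (0.34), Clpp (0.37) and Hspa9 (0.34) were called, and Hspe1 (0.25) and Phb2 (0.28) were not.

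In cells with percent.mt under 10, the CD4 picture changed for the chaperonin and not for Lonp1. Lonp1 was 77.8 and 84.5 CPM in stimulated WT and 38.4 and 36.1 CPM in stimulated SDHA-KO CD4 cells (log2 fold change −1.13 ± 0.09, edgeR adjusted p = 3.16e-06). Hspd1 was 746 and 674 CPM in WT and 755 and 841 CPM in SDHA-KO cells and was not called (0.17 ± 0.10), although the genotypes did not overlap. Hspe1 was 1051 and 989 CPM against 931 and 996 CPM, with overlap (−0.08 ± 0.08). Here Hspa9 (−0.29 ± 0.07) and Trap1 (−0.35 ± 0.08) were lower and Dnaja3 (0.30 ± 0.09) was higher in SDHA-KO cells, with 32.8% of all genes called in the same cells. With library totals in place of TMM, a scaling under which the median of all genes was 0.19 rather than near 0, Hspd1 was called (0.36), and Hspa9 (−0.10) and Trap1 (−0.16) were not. Without WT replicate 1 the calls of Hspa9 (−0.22) and Dnaja3 (0.29) were lost, and without WT replicate 2 those of Trap1 (−0.30) and Dnaja3 (0.31). The Hspa9 call was also lost without SDHA-KO replicate 1 (−0.25), and that of Dnaja3 without SDHA-KO replicate 2 (0.26) or with DESeq2 (0.30), the former a fit in which Phb was called (−0.30).

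In CD8 cells with percent.mt under 10 the calls were Hspd1 (789 and 726 against 1181 and 1161 CPM, 0.63 ± 0.07), Hspe1 (0.35 ± 0.07), Phb2 (0.36 ± 0.07), Clpp (0.39 ± 0.08), Dnaja3 (0.42 ± 0.13) and Lonp1 (84.6 and 90.6 against 51.9 and 45.8 CPM, −0.84 ± 0.09), where 35.4% of all genes were called. For Hspd1, Hspe1, Phb2 and Clpp the log2 fold changes were smaller than in all CD8 cells, and for Lonp1 it was larger in size. Of these 6, the genes called in strict cells with percent.mt under 10 were Hspd1 (0.47), Lonp1 (−0.85) and Dnaja3 (0.68), while Hspe1 (0.15), Phb2 (0.16) and Clpp (0.23) were not. The Dnaja3 call among all CD8 cells under 10 was lost without WT replicate 1 (0.31), SDHA-KO replicate 1 (0.46) or SDHA-KO replicate 2 (0.40), and with DESeq2 (0.43).

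The rest of the stimulated cells, with percent.mt of 10 and over, held a larger Hspd1 gap. On CPM of nuclear UMIs, which leaves the mitochondrially encoded genes out of the total, Hspd1 in these CD4 cells was 711 and 616 in WT and 1889 and 1772 in SDHA-KO libraries, a 2.76-fold ratio of means. In CD4 cells under 10 the ratio was 1.27. In CD8 cells of 10 and over, Hspd1 was 898 and 813 in WT and 2567 and 2731 in SDHA-KO libraries, a ratio of 3.096 against 1.63 in those under 10. These ratios were not compared by a test, since the split by percent.mt follows counts of the same cells. In SDHA-KO libraries Hspd1 was thus lower in cells under 10 than in the others (0.452 to 0.539 times in CD4 and 0.488 to 0.537 times in CD8), while in WT libraries it was nearly level (0.966 to 1.09 times).

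Hspe1 was higher in cells under 10 in both genotypes, the opposite of Hspd1 in SDHA-KO. It was 1.99 to 2.07 times higher in WT CD4 cells under 10 than in those of 10 and over, 2.04 to 2.15 times higher in SDHA-KO CD4 cells, and 2.07 to 2.57 times higher in CD8 cells of both genotypes. Lonp1 was 0.657 to 0.897 times as high in cells under 10 in all 8 sums. Its SDHA-KO values were below WT on both sides of the split, with ratios of 0.517 and 0.532 in CD4 and 0.589 and 0.717 in CD8 cells under 10 and of 10 and over. Dnaja3 changed side: its SDHA-KO to WT ratio was 1.38 and 1.41 in CD4 and CD8 cells under 10, and 0.783 and 0.742 in those of 10 and over, without overlap of the genotypes in any of the 4 settings. In cells of 10 and over, the SDHA-KO values of Dnaja3 rested on 32 and 22 UMIs in CD4 and 48 and 35 in CD8 libraries.

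The authors' annotation divides the stimulated cells into central memory (Tcm) and effector memory (Tem) subsets, which are numbered clusters pooled here by name. These labels followed the percent.mt split: 4.32% to 6.73% of WT and 13.4% to 46.2% of SDHA-KO Tcm were under 10, compared with 89.2% to 95.6% of WT and 98.3% to 100% of SDHA-KO Tem. In CD4 Tcm, Hspd1 rose from 598 and 512 CPM in WT to 1323 and 1369 CPM in SDHA-KO (log2 fold change 1.28 ± 0.09, edgeR adjusted p = 5.96e-05) and Lonp1 fell from 85.8 and 84.4 to 52.5 and 39.3 CPM (−0.89 ± 0.14, adjusted p = 0.00232). None of the other 7 genes was called in CD4 Tcm, where 25.1% of all genes were, and Hspe1 stood at 423 and 404 CPM in WT and 396 and 434 CPM in SDHA-KO (0.00 ± 0.09). In CD4 Tem, Lonp1 (81.3 and 87.6 against 39.3 and 37.1 CPM, −1.15 ± 0.08), Hspa9 (−0.31 ± 0.07), Trap1 (−0.38 ± 0.08) and Dnaja3 (0.31 ± 0.08) were called, with 31.7% of all genes called, and Hspd1 was not (784 and 718 against 776 and 854 CPM, 0.12 ± 0.08). The subset fits rest on 4 libraries. The Hspa9 and Dnaja3 calls in CD4 Tem were lost without WT replicate 1 (−0.25 and 0.30), and the Hspa9, Trap1 and Dnaja3 calls without WT replicate 2 (−0.37, −0.33 and 0.31). They were also lost for Hspa9 without SDHA-KO replicate 1 (−0.27) and for Dnaja3 without SDHA-KO replicate 2 (0.28) and with DESeq2 (0.31). With library totals in place of TMM, which put the median of all genes at 0.20, Hspd1 was called in CD4 Tem (0.32) and Hspa9 (−0.11) and Trap1 (−0.18) were not.

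In CD8 Tcm, 7 of the 9 genes were called, where 27.9% of all genes were. Hspd1 went from 708 and 684 CPM in WT to 1751 and 1988 CPM in SDHA-KO (1.43 ± 0.12, edgeR adjusted p = 0.000669), the largest log2 fold change of the 9 in any of these fits of SDHA-KO against WT. Phb2 (0.71 ± 0.09), Clpp (0.57 ± 0.13), Trap1 (0.47 ± 0.10), Phb (0.37 ± 0.10) and Hspa9 (0.34 ± 0.09) were also higher in SDHA-KO, and Lonp1 was lower (87.0 and 102 against 69.4 and 54.2 CPM, −0.59 ± 0.15, adjusted p = 0.0219). Without WT replicate 2 Hspd1 was the 1 gene still called, and without WT replicate 1 it was Hspd1 and Clpp, so the other CD8 Tcm calls rest on having both WT libraries. The Trap1 call was also lost with DESeq2 (0.47, adjusted p = 0.0729). Hspe1, at 459.7 and 422 against 622 and 505 CPM (0.36 ± 0.13), was called without SDHA-KO replicate 2 (0.50). In CD8 Tem the calls were Hspd1 (897 and 792 against 1295 and 1243 CPM, 0.59 ± 0.07), Hspe1 (0.35 ± 0.09), Phb2 (0.36 ± 0.08), Clpp (0.38 ± 0.07), Dnaja3 (0.43 ± 0.11) and Lonp1 (93.3 and 97.8 against 56.3 and 49.3 CPM, −0.85 ± 0.09), where 33.4% of all genes were called. Here the Clpp call was lost without WT replicate 2 (0.32) and the Dnaja3 call without WT replicate 1 (0.33) or SDHA-KO replicate 2 (0.41) and with DESeq2 (0.45). The CD8 Tem pool held different clusters in each genotype: Tem1 had 136 and 111 SDHA-KO cells and 16 and 16 WT cells, whereas Tem2 had 75 and 63 SDHA-KO cells and 132 and 150 WT cells.

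**Figure D3:**
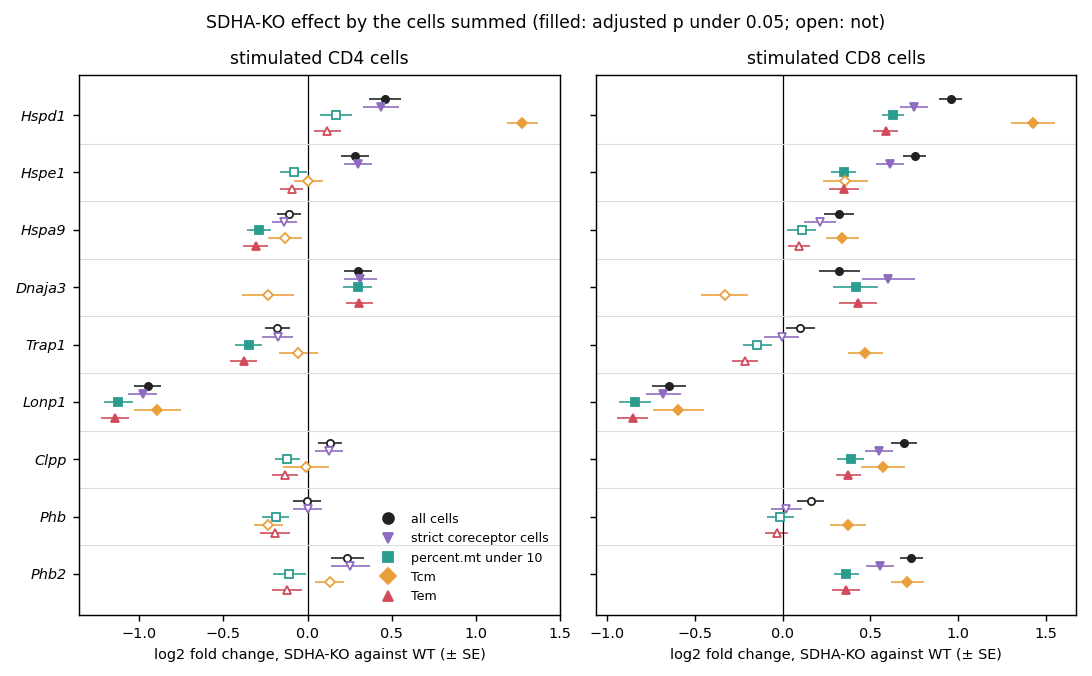
Log2 fold change of SDHA-KO against WT in stimulated CD4 (left) and CD8 (right) cells for the 9 genes, by the cells summed: all, strict, percent.mt under 10, Tcm and Tem; bars are SE and filled points had an adjusted p under 0.05. Lonp1 is filled and left of 0 in all 10 settings, between −0.59 and −1.15, while Hspd1 ranges from 0.12 in CD4 Tem to 1.43 in CD8 Tcm.

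Within the numbered subsets, 12 held at least 20 cells in each of the 4 stimulated libraries, 8 of CD4 and 4 of CD8 cells. Both SDHA-KO libraries lay above both WT libraries for Hspd1 in 12 of 12 subsets and below them for Lonp1 in 12 of 12. Of 6668 genes whose CPM averaged 20 or more over those libraries and subsets, 3.46% were above in every subset and 2.23% were below in every subset. The subsets of a library share that library, so these are 12 views of 4 libraries and not 12 replicates. The Hspd1 ratio of nuclear CPM ran from 1.25 in CD4 Tem3 to 2.99 in CD8 Tcm3, and was 2.46 or more in each of the 6 Tcm subsets. In CD8 Tcm3 the Hspd1 values were 751 and 752 in WT and 2246 and 2246 in SDHA-KO libraries. The Lonp1 ratio ran from 0.496 in CD4 Tem1, with 79.0 and 86.8 against 43.3 and 38.8 nuclear CPM, to 0.783 in CD8 Tcm4, with 90.6 and 108 against 84.3 and 71.0. The smallest Lonp1 sums were 12 UMIs in CD4 Tem7 and 14 in CD4 Tcm3.

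The other genes were less uniform across subsets. SDHA-KO libraries lay above WT for Hspe1 in 10 subsets (ratio 0.949 to 1.55), for Phb2 in 9 (0.961 to 1.79) and for Clpp in 8 (1.03 to 1.93), with overlap in the rest. Hspa9 was above in 7 and below in 3, Dnaja3 above in 6 and below in 4 (0.566 to 1.51), Phb above in 5 and below in 2, and Trap1 above in 4 and below in 5. Some of these sums were small, down to 7 UMIs of Dnaja3 in CD4 Tcm2, where its ratio was lowest, and 6 of Trap1 in CD4 Tem7. For Trap1 the ratio was 1.41 to 1.47 in the 3 CD8 Tcm subsets. Hspd1 was higher in SDHA-KO in every one of the 5 CD4 Tem subsets tabulated but not called in pooled CD4 Tem. The makeup of that pool differed, since CD4 Tem5, with WT Hspd1 at 631 and 546 nuclear CPM, had 369 and 375 SDHA-KO cells and 47 and 63 WT cells. The scaling differed as well, since all values in numbered subsets used totals of nuclear UMIs without TMM. With library totals in place of TMM, Hspd1 was called in the pooled CD4 Tem fit (0.32). The part of makeup or scaling in this difference was not tested.

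**Figure D4:**
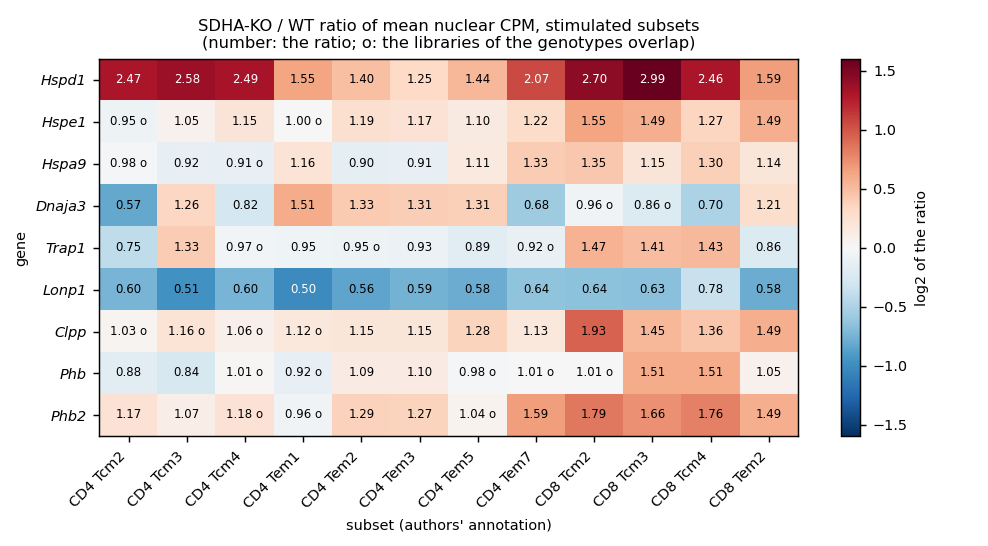
Ratio of mean nuclear CPM, SDHA-KO over WT, of the 9 genes (rows) in the 12 stimulated subsets (columns) with at least 20 cells in each library; color is the log2 of the ratio and "o" marks subsets where the libraries of the genotypes overlap. The Hspd1 row runs from 1.25 to 2.99 and the Lonp1 row from 0.496 to 0.783 without any overlap, whereas Dnaja3 holds ratios from 0.566 to 1.51. The lowest Dnaja3 ratio rested on as few as 7 UMIs.

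Hspd1 and Hspe1 share a promoter region but kept no fixed ratio of UMIs. A ratio of 3′ UMIs can be compared between libraries, not read as a ratio of proteins. Hspd1 per Hspe1 UMI was 0.215 to 0.311 in unstimulated CD4 and 0.190 to 0.263 in unstimulated CD8 libraries. After stimulation it was 0.788 and 0.745 in WT and 0.859 and 0.874 in SDHA-KO CD4 cells, and 0.843 and 0.861 in WT and 0.986 and 0.975 in SDHA-KO CD8 cells. In CD4 Tcm the ratio was 1.41 and 1.27 in WT and 3.34 and 3.16 in SDHA-KO libraries, and in CD8 Tcm 1.54 and 1.62 against 2.82 and 3.94. In cells with percent.mt of 10 and over it was 3.67 and 3.37 in SDHA-KO CD4 and 3.93 and 4.42 in SDHA-KO CD8 libraries. In CD4 Tem it was only 0.702 and 0.677 in WT and 0.782 and 0.814 in SDHA-KO. The genotypes did not overlap in any of these stimulated settings. Phb2 per Phb UMI was likewise higher in stimulated SDHA-KO, at 2.16 and 2.13 against 2.50 and 2.56 in CD4 and 1.87 and 1.81 against 2.72 and 2.76 in CD8 cells. The prohibitin ratio was lower in Tcm (1.01 to 1.53 over both classes and genotypes) than in Tem (2.31 to 3.20), which is the reverse of the order for the chaperonin pair.

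**Figure D5:**
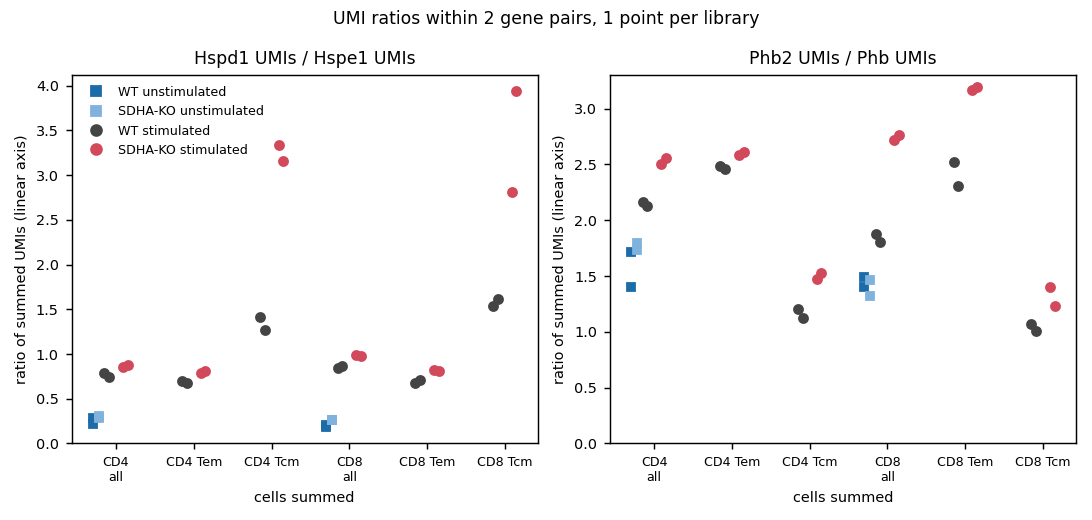
Ratio of summed UMIs (linear axes) of Hspd1 over Hspe1 (left) and of Phb2 over Phb (right) by the cells summed; each point is 1 library, squares are unstimulated and circles stimulated. Among the cells plotted, the Hspd1 ratio is highest in SDHA-KO Tcm, between 2.82 and 3.94, and the Phb2 ratio is highest in CD8 Tem of SDHA-KO, at 3.16 and 3.20.

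Per cell the sums gave a different scale. A stimulated SDHA-KO CD8 cell held a mean of 151 UMIs of the 9 genes and a WT cell 67.9, while in CD4 cells the means were 73.4 and 70.8. The median cell of the stimulated CD8 class held 30662 and 29912 UMIs in SDHA-KO and 13152 and 13265 in WT. The median CD4 cell held 23669 and 24651.5 in SDHA-KO and 14753 and 14464 in WT, so both medians were higher in SDHA-KO. Means are the measure that matches the values of the 9 genes, and the mean total of CD4 cells went the other way. Stimulated WT CD4 libraries held 25283357 and 29087409 UMIs in 859 and 967 cells. The SDHA-KO ones held 28163818 and 34087903 UMIs in 1137 and 1284 cells, which is fewer per cell. Lonp1 was the gene with fewer UMIs per cell in stimulated SDHA-KO in both classes, at 0.453 times WT in CD4 and 0.876 times WT in CD8 cells.

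Among 21 other mitochondrial chaperones and proteases, 10 were higher and 3 lower in stimulated SDHA-KO CD4 cells, and 10 higher and 5 lower in CD8 cells. Of all genes tested, 22.7% were higher and 20.5% lower in CD4 cells, and 26.8% higher and 23.5% lower in CD8 cells. Their median log2 fold changes were 0.21 and 0.00, those of the 9 genes were 0.14 and 0.32, and those of all genes tested were −0.00 and −0.01. Afg3l2, a subunit of the m-AAA protease of the inner membrane that the prohibitins hold, fell from 48.1 and 49.4 to 28.6 and 24.9 CPM in CD4 (−0.86 ± 0.09, edgeR adjusted p = 2.66e-05) and from 54.8 and 63.5 to 38.5 and 32.5 CPM in CD8 cells (−0.73 ± 0.11). Spg7, its partner subunit, fell by 0.34 and by 0.44 on the log2 scale. Yme1l1, the i-AAA protease, fell by 0.29 in CD4 cells, and Immp2l, an inner membrane peptidase, fell by 0.47 in CD8 cells. The largest rises in CD4 cells were those of Lactb (1.04 ± 0.10), Oma1, a stress-activated metalloprotease (0.61 ± 0.10), and Immp1l (0.52 ± 0.07). In CD8 cells they were Stoml2, a prohibitin relative (0.79 ± 0.07), Grpel1, the nucleotide exchange factor of mtHsp70 (0.77 ± 0.08), and Htra2, an intermembrane space protease (0.75 ± 0.08).

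Of 24 cytosolic chaperones, 11 were higher and 2 lower in stimulated SDHA-KO CD4 cells (median 0.21), and 22 were higher and 0 lower in CD8 cells (median 0.58). The shares of all genes called in either direction were 43.2% in CD4 and 50.4% in CD8 cells. In CD4 cells with percent.mt under 10 the numbers were 4 higher and 7 lower, and in CD8 cells 13 higher and 0 lower. There 32.8% and 35.4% of all genes were called. Hsph1, an Hsp110 exchange factor, had the largest rise in both classes, from 29.2 and 27.2 to 52.1 and 51.7 CPM in CD4 (0.88 ± 0.17) and from 34.8 and 36.0 to 95.3 and 88.0 CPM in CD8 cells (1.37 ± 0.09). Ahsa1, the activator of Hsp90, came next in CD4 (0.69 ± 0.09) and Cct3, a subunit of the cytosolic chaperonin, in CD8 cells (0.98 ± 0.08). Hsp90ab1 fell in CD4 cells (−0.55 ± 0.07) and rose in CD8 cells (0.36 ± 0.06), as did Cct4 (−0.22 ± 0.08 and 0.32 ± 0.07). In CD8 cells with percent.mt under 10 neither was called (−0.09 and −0.04).

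Of the transcription factors tied to mitochondrial and heat stress, Ddit3, which encodes CHOP, fell from 32.7 and 37.1 to 9.18 and 7.73 CPM in stimulated SDHA-KO CD4 (−2.05 ± 0.15, edgeR adjusted p = 2.88e-06) and from 30.7 and 31.4 to 7.14 and 6.44 CPM in CD8 cells (−2.18 ± 0.11). Atf4 (−0.40 ± 0.08) and Cebpb (−0.35 ± 0.09) fell in CD4 cells and were not called in CD8 cells (0.11 ± 0.07 and −0.10 ± 0.11). In CD8 cells with percent.mt under 10, however, Atf4 fell by 0.24 on the log2 scale. Atf5, a factor tied to the mitochondrial unfolded protein response, stood at 3.65 to 6.21 CPM in the stimulated sums and was not called in either class. Hsf1, the main heat shock factor, rose in CD8 cells from 16.4 and 14.6 to 25.0 and 26.6 CPM (0.73 ± 0.10, adjusted p = 0.000129) and was not called in CD4 cells (0.32 ± 0.13). These are mRNA levels, and neither nuclear location nor activity of a factor was measured.

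Over the 16 sums of 2 classes in 8 libraries, the 9 genes were compared with their mean z-score of log2 CPM. Pearson's r with that score was 0.994 for Phb2, 0.991 for Hspd1, 0.983 for Hspa9, 0.969 for Phb, 0.958 for Hspe1, 0.946 for Clpp, 0.922 for Trap1, 0.901 for Lonp1 and 0.678 for Dnaja3. Of 5665 genes outside the lists used here whose CPM averaged 20 or more over the 16 sums, those with the highest r were Pole3 (0.996), Ak6 (0.995), Rcc1 (0.994), Psmd7 (0.994) and Psmd3 (0.994). The 16 points share libraries and follow the stimulation state for the most part, so these coefficients are a description.

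Counting limits apply to some of these genes. Hspe1 has 6 and Hspd1 has 5 annotated processed pseudogenes and Hspa9 has 1, and Dnaja3 overlaps Vasn on the same strand by 10814 bases, so reads may have been assigned differently among these copies than their source. The authors' handling of such reads was not given in the sources used here.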

How the data were processed

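Splenic T cells were sequenced in 8 libraries, 2 in each of 4 groups, and the deposited table of cells gave the library of each. The authors processed 10x Genomics 3′ HT reads, with Cell Ranger and mm10 named in the submitters' notes and no version given there, removed cells with very many detected genes (with a higher limit in stimulated samples) and clusters lacking CD3 transcripts, and deposited the UMI counts without normalization. The deposited percent of mitochondrial UMIs per cell (percent.mt) was computed by the authors, as were the CD4 and CD8 classes and subset names. All counts were whole numbers, and UMI totals and percent.mt matched the matrix in 12846 of 12846 cells (tolerance 0.001).

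UMIs were summed per library and class, because cells are not replicates. Genes were kept with filterByExpr (minimum count 10, total 15), scaled by TMM and tested with glmQLFit and glmQLFTest of edgeR 4.0.16 in R 4.3.3 over 4 groups, with Benjamini-Hochberg adjustment over all genes and calls at 0.05. DESeq2 1.42.0 was an alternative. Standard errors are the log2 fold change divided by the root of F. An exact permutation test of 2 against 2 libraries cannot give p below 0.333 and was not used. Numbered Tcm and Tem subsets were pooled by name for tests. The spread between libraries was 8.73% in the CD4 and 8.24% in the CD8 fit. There were 23 barcode sequences found in 2 or more libraries. No doublet caller was run. The members and lists were chosen with earlier results of these data known. All members were named. Of the other lists, the genes with the largest called changes were named: 3 in each direction for mitochondrial and 2 for cytosolic chaperones, with all stress factors and the 5 genes most alike. The scripts were tested on simulated data. Alternatives were library totals, no filter, nuclear UMIs only, a replicate block, each library left out, only the libraries compared, DESeq2 and strict cells. Sequences came from RefSeq windows; none was used for Hspa9. Plots used Python 3.11.15 and matplotlib 3.10.9.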

Additional observations from a re-analysis of the deposited data

Results flagged for a closer look

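The SDHA-KO effect differed between stimulated and unstimulated cells, by a test of the difference itself, for 6 of the values. In CD4 cells these were Lonp1 (−0.89) and Hspa9 (−0.36), and in CD8 cells Hspd1 (0.61), Hspe1 (0.81), Phb2 (0.76) and Clpp (0.83), each as a difference of log2 fold changes. The Hspa9 call was lost with DESeq2, with nuclear UMIs only and with each library left out. Hspd1 in CD8 cells was not called in strict cells (0.31). In CD8 cells, 56.1% to 59.1% of the stimulated SDHA-KO cells and 15.2% to 19.7% of the unstimulated SDHA-KO cells carried a Trdc UMI.

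The SDHA-KO effect also differed between stimulated CD8 and CD4 cells, by the same kind of test, for Clpp (0.55), Phb2 (0.49), Hspd1 (0.48), Hspe1 (0.46), Hspa9 (0.41), Lonp1 (0.29) and Trap1 (0.26). The Lonp1 and Trap1 calls were lost in most alternatives, among them DESeq2 and strict cells. Groups of 2 libraries were too small to look for single libraries that stand apart.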

How the results depend on the processing

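Under the alternatives, 1755 log2 fold changes of the 9 genes were obtained. Of these, 1642 kept their side of the threshold, 93 lost a call, 20 gained a call, and 0 called values changed sign. Among the 1642, 60 changed sign without a call in either setting. The number of genes called among the 9 in stimulated CD4 cells was 4, and 2 to 5 with a library left out (2 without WT replicate 2). In unstimulated CD8 cells it was 0, and 1 with library totals, DESeq2 or strict cells. For the difference between states in CD4 cells it was 2, and 1 without the filter, with nuclear UMIs, with DESeq2 or with the replicate block, and 1 to 2 with a library left out. In cells with percent.mt under 10 it was 4 in CD4 and 2 to 4 with a library left out (2 without either WT library), and 6 in CD8 and 3 in strict cells. For CD8 against CD4 cells it was 7, and 4 to 6 with a library left out (4 without WT replicate 1) and 3 in strict cells with percent.mt under 10. In CD4 Tem it was 4, 2 with the replicate block and 1 to 4 with a library left out. In CD8 Tcm it was 7, and 1 to 8 with a library left out (2 without WT replicate 1, 1 without WT replicate 2). The cause of these changes was not tested, beyond the fewer libraries in a fit. The deviations of same-numbered libraries correlated between −0.13 and 0.165 across groups. The labels do not say whether libraries with the same replicate number share a source, and these correlations cannot decide it. The block also took the CD8 Tcm calls of Phb (adjusted p = 0.0635) and Hspa9 (0.0758) and the CD4 Tem calls of Hspa9 (0.0534) and Dnaja3 (0.0621) past 0.05. Over all genes, DESeq2 called 2973 against 4492 in CD4 cells with percent.mt under 10, 2643 against 4459 in those of CD8, 1484 against 3270 for CD8 against CD4 cells, 1516 against 2956 in CD4 Tcm, 1906 against 3358 in CD8 Tcm, 287 against 157 in unstimulated CD4 and 266 against 124 in unstimulated CD8 cells. Strict cells gave 1430 genes for CD8 against CD4 cells (909 with percent.mt under 10) and 219 in unstimulated CD8 cells. Unstimulated counts were 643 and 225 without the filter and 445 and 338 from the libraries compared alone, in CD4 and CD8. With a library left out they went down to 18 in CD4 (without WT replicate 1) and 10 in CD8 cells (without WT replicate 2), that of stimulated CD4 cells to 4020 (without WT replicate 1), and that of CD8 Tcm to 862 (without WT replicate 2). Without TMM the median of all genes in stimulated against unstimulated WT was 0.30 in CD4 and 0.57 in CD8 cells, where Dnaja3 (0.28 and 0.58) was then called and lay near that median.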
